A study of Saccharomyces cerevisiae with 50 samples.

Results

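The promoters described here are those of 10 retrograde-response and tricarboxylic acid (TCA) cycle genes of Saccharomyces cerevisiae, namely CIT1, CIT2, ACO1, IDH1, IDH2, IDP1, DLD3, PYC1, MDH2 and MLS1, out of 6430 promoters in all. The genes were chosen by name, each promoter is the 600 bp upstream of the gene start in the R64 annotation, and all 10 were found there. For each promoter it was recorded whether a peak called in a ChIP-Seq experiment overlapped it by at least 1 bp, and the score that the peak caller MACS gave that peak. The score rises as the P-value of the peak falls, no deposited peak scores below 50, and a promoter without a peak is given a score of 0 here.

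The study immunoprecipitated 6 transcription factors carrying C-terminal c-myc epitopes from strain Z1256 of the W303 background. Each factor was assayed in a strain from which a predicted cofactor had been deleted with a kanamycin resistance marker, and in the tagged strain that keeps the cofactor, called wild type. The pairs were Rtg3p in gcn4Δ and wild type, Gcn4p in rtg3Δ and wild type, Sut1p in nrg1Δ and wild type, and Nrg1p in sut1Δ and wild type, with 3 immunoprecipitations (IPs) per strain, as well as Swi6p in swi4Δ and wild type with 2 IPs and Swi4p in swi6Δ and wild type with 1. All Gcn4p and Rtg3p cultures, deletion and wild type alike, were grown in YPD-rich medium and exposed to 100 nM rapamycin, an inhibitor of TOR signaling, for 20 min before cross-linking. Nrg1p, Sut1p and Swi4p cultures were grown in YPD to an OD600 of about 0.8, and the growth of the Swi6p cultures is not stated in the labels. Wild-type replicates were split from a single culture, whereas deletion replicates were grown separately, so the spread between wild-type IPs is technical and strains differ by culture as well as by genotype. For Sut1p, Nrg1p and Swi6p there is also a single INPUT per strain, shared by its IPs.

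The retrograde response carries signals of mitochondrial dysfunction, or of poor nitrogen supply, to the nucleus. Its activators are Rtg1p and Rtg3p, basic helix-loop-helix proteins that bind DNA as a heterodimer and are held in the cytoplasm by Mks1p and 14-3-3 proteins until Rtg2p relieves that block. CIT2, which encodes the peroxisomal citrate synthase of the glyoxylate cycle, is the textbook target. CIT1, ACO1, IDH1 and IDH2 encode the first steps of the TCA cycle as far as α-ketoglutarate, the precursor of glutamate, and depend on the RTG genes when respiration is impaired. Gcn4p is the activator of amino acid biosynthesis genes.

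No sample of Rtg3p had a peak at any of the 10 promoters. The count was 0 in each of the 3 gcn4Δ IPs and 0 in each of the 3 wild-type IPs, so that none of the 60 combinations of promoter and IP had a peak. The question of whether Rtg3p at these genes depends on Gcn4p therefore cannot be put to these lists, because there is no called wild-type occupancy to lose. Over all promoters, 0.653% had a peak in at least 2 gcn4Δ IPs and 2.32% in at least 2 wild-type IPs. Promoters whose scores did not overlap between the strains made up 0.295% (lower in gcn4Δ) and 0.0311% (higher in gcn4Δ).

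The Rtg3p lists are short. They hold 103, 46 and 216 peaks in gcn4Δ, against 297, 117 and 204 in wild type, and a peak overlapped 1.54, 0.529 and 3.28% of all promoters in gcn4Δ, against 5.46, 1.94 and 3.53% in wild type. At those shares, 10 promoters would hold 0.0529 to 0.546 peaks per IP. A count of 0 of 10 is thus close to the background of all promoters in each list, and the depth of the libraries is unknown. The lists of one strain also share few promoters. Of the promoters with a peak in either of a pair of IPs, 7.46 to 14.7% had one in both for gcn4Δ and 13.9 to 26.5% for wild type. In all 6 Rtg3p lists a peak with the highest score of the list, 3100, lay on chromosome 12 from about 459600 to 460753 over the ribosomal DNA. Whether other peaks tied with it was not checked.

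**Figure D1:**
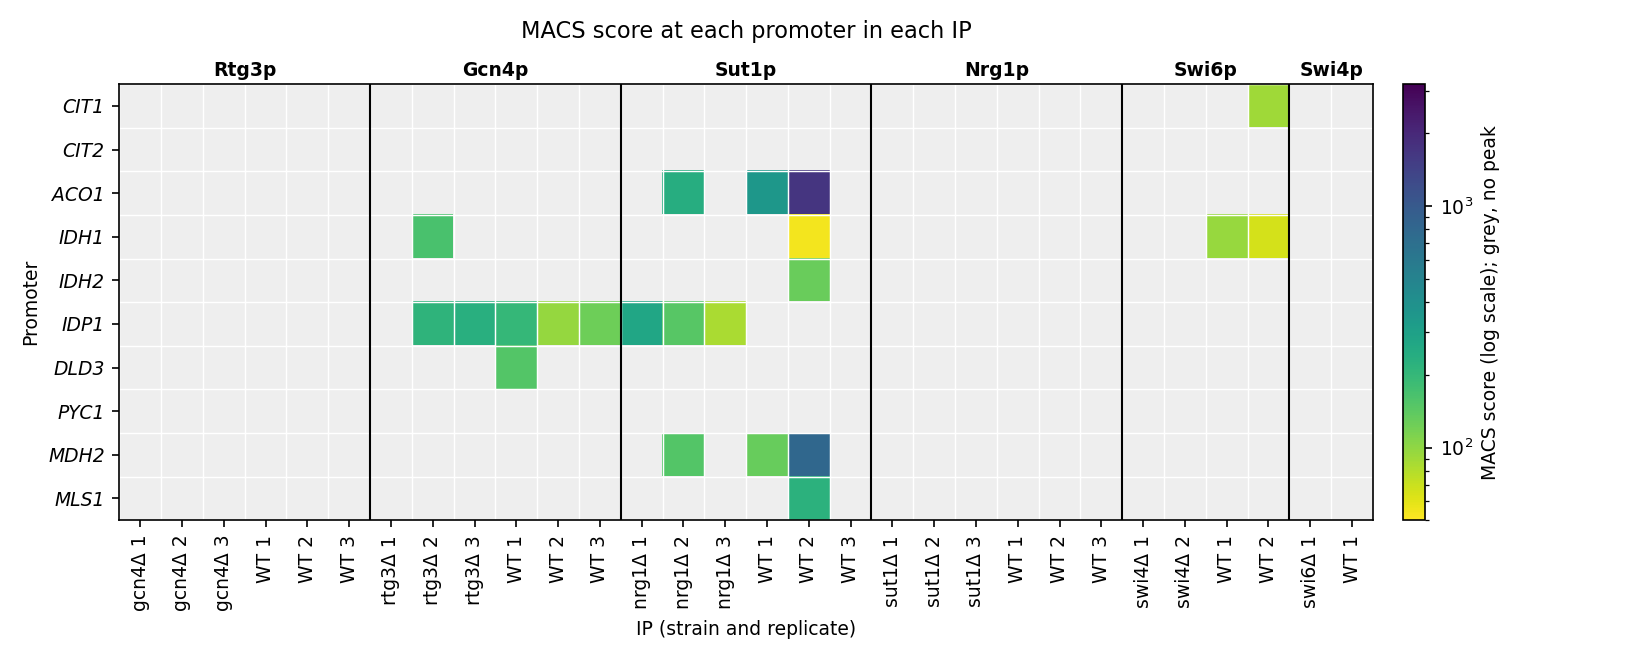
MACS score of the peak over each of the 10 promoters (rows) in each of the 30 IPs (columns, grouped by factor with the cofactor deletion left of the wild type), on a logarithmic color scale, with grey for no peak. The Rtg3p, Nrg1p and Swi4p columns are empty, as are the rows of CIT2 and PYC1, and IDP1 has the most filled cells, 8.

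The gap to the nearest Rtg3p peak varied widely. Over the 60 combinations the gap between the promoter and the nearest peak had a median of 26093 bp and ranged from 449 to 440472 bp. For CIT2 (YCR005C, promoter on chromosome 3 from 122329 to 122928) it was 3057, 159891 and 9680 bp in the gcn4Δ IPs, against 9232, 105004 and 9099 bp in the wild-type IPs. For DLD3, which encodes a cytoplasmic D-lactate dehydrogenase and is another standard reporter of the retrograde response, the gaps were 89482, 153511 and 2870 bp in gcn4Δ and 3221, 126494 and 16462 bp in wild type. The gap was under 1000 bp once. This was at IDH2, which encodes a subunit of the mitochondrial NAD-dependent isocitrate dehydrogenase, where a gcn4Δ peak of replicate 1 with a score of 58.5 lay inside the gene, 449 bp past the promoter on chromosome 15 from 580698 to 581297. The median gap over the 10 promoters lay between 10773 and 149070 bp in the gcn4Δ IPs and between 16649 and 34791 bp in the wild-type IPs. Over all promoters on chromosomes with a peak it was 20632 to 90681 bp in gcn4Δ and 12738 to 35618 bp in wild type. This left out 245 promoters in gcn4Δ replicate 1 and 333 in gcn4Δ replicate 2.

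**Figure D2:**
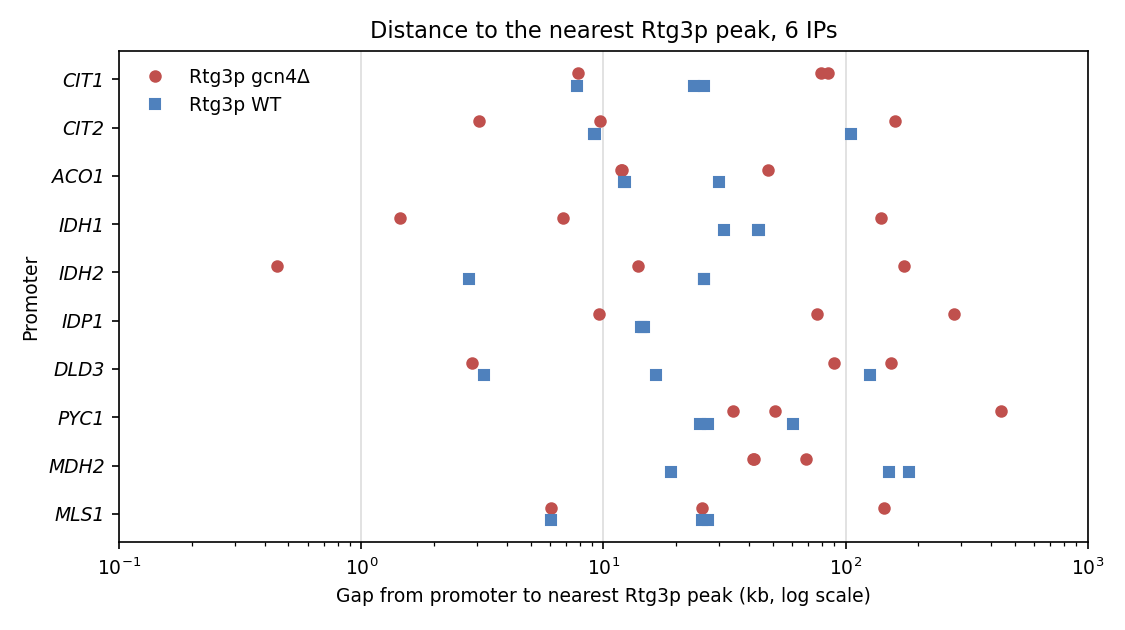
Gap in kilobases between each of the 10 promoters and the nearest Rtg3p peak, on a logarithmic axis, with 1 point per IP for gcn4Δ (circles) and wild type (squares). No point is at 0, and the smallest gap is 449 bp, at IDH2 in gcn4Δ.

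Gcn4p was found at IDP1. This gene encodes the mitochondrial NADP-dependent isocitrate dehydrogenase, which makes α-ketoglutarate for amino acid synthesis. Its promoter (YDL066W) lies on chromosome 4 from 334235 to 334834 and had a Gcn4p peak in 2 of 3 rtg3Δ IPs and in 3 of 3 wild-type IPs. The scores were 0, 213 and 232 in the rtg3Δ IPs, against 199, 96.9 and 125.5 in the wild-type IPs. The rtg3Δ IP without a peak lies below all wild-type IPs, and the other rtg3Δ IPs lie above all of them, so the strains overlap. The mean was 148 ± 129 in rtg3Δ and 140.45 ± 52.6 in wild type (SD, n = 3 each), a difference of 7.81 that is far smaller than the spread (P = 0.9 when the IPs were permuted exactly, two-sided, and adjusted P = 1 by Benjamini-Hochberg over the 1501 promoters with a Gcn4p peak in any of the 6 IPs).

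The sign of that difference rests on single IPs. It was -33.9 without rtg3Δ replicate 3, -24.6 without rtg3Δ replicate 2, -13.95 without wild-type replicate 2 and 81.9 without rtg3Δ replicate 1, the IP that lacks the peak. That list differs from the other Gcn4p lists in its median score, 446 against 142 to 217, and in its median peak width, 751 bp against 1185 to 1671 bp, and the part of these differences in the missing peak was not tested. Within their lists the IDP1 peaks were of middle rank, with 48.3 and 60.3% of peaks scoring lower in the rtg3Δ IPs that have one and 33.4 to 57% in the wild-type IPs. All 5 Gcn4p peaks covered the whole 600 bp, and they also covered the promoter of CBS1, which encodes an activator of cytochrome b translation, and at least 542 bp of that of COX9, which encodes a subunit of cytochrome c oxidase and is transcribed away from IDP1. The peak centers lay 307 and 818 bp upstream of the IDP1 start in rtg3Δ and 466 to 1068 bp upstream in wild type, so the lists do not tell these 3 promoters apart.

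Elsewhere among the 10 promoters Gcn4p had single peaks. At IDH1 (YNL037C, promoter on chromosome 14 from 559003 to 559602), which encodes the partner subunit of Idh2p, the scores were 0, 165 and 0 in rtg3Δ and 0 in all wild-type IPs. The rtg3Δ peak spanned 559062 to 560513 on chromosome 14, and its center lay 26 bp upstream of the start of NCE103, the carbonic anhydrase gene, and 786 bp upstream of that of IDH1. At DLD3 the scores were 0 in all rtg3Δ IPs, against 151, 0 and 0 in the wild-type IPs, from a peak on chromosome 5 from 15365 to 16412 that covered no other promoter. For both, the permutation test gave P = 1 (exact, two-sided, n = 3 per strain). The other 7 promoters had no Gcn4p peak in any of the 6 IPs. For CIT1 the nearest one lay 7517, 7255 and 7288 bp away in rtg3Δ, against 7285, 6267 and 5661 bp in wild type, and for CIT2 the gaps were 9317, 15750 and 15785 bp in rtg3Δ, against 9142, 8913 and 14525 bp in wild type. Over all promoters the median gap to a Gcn4p peak was 5967 to 8238 bp in the rtg3Δ IPs and 5176 to 6986 bp in the wild-type IPs, so the CIT1 gaps are near that background. Of the 7, MDH2 had the closest, 864 bp past the promoter and over the 3′ end of the gene, in rtg3Δ replicate 1 with a score of 492.

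In total 0, 2 and 1 of the 10 promoters had a Gcn4p peak in the rtg3Δ IPs, against 2, 1 and 1 in the wild-type IPs (mean 1 ± 1 and 1.33 ± 0.577, SD, n = 3 each). Across the genome a Gcn4p peak overlapped 6.87, 8.77 and 9.95% of promoters in rtg3Δ, against 9.78, 10.1 and 10.5% in wild type, which corresponds to 0.687 to 0.995 and 0.978 to 1.05 of 10 promoters. With a peak required in at least 2 IPs, 1 of the 10 (IDP1) was occupied in each strain, against 6.89% of all promoters in rtg3Δ and 8.72% in wild type. The counts are near the background in both strains. Scores that did not overlap between strains were found at 0.653% of all promoters (higher in rtg3Δ) and 0.855% (lower in rtg3Δ), and at none of the 10.

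**Figure D3:**
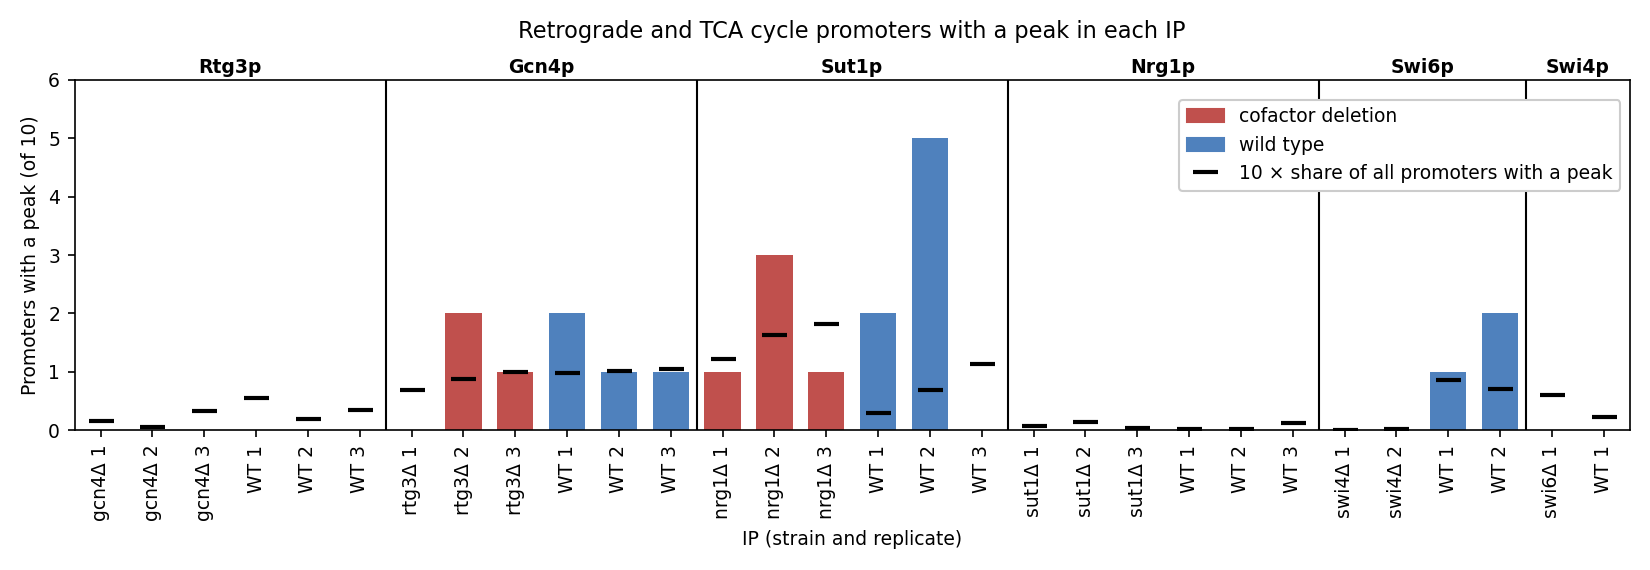
Number of the 10 promoters with a peak in each IP (bars, red for the cofactor deletion and blue for the wild type), with black marks at 10 times the share of all 6430 promoters with a peak in the same list. The highest bar is Sut1p wild-type replicate 2 with 5 promoters at a mark of 0.683, and Rtg3p has no bar.

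Sut1p, a zinc cluster protein known for its role in sterol uptake, had peaks at more of these promoters than any other factor, 6 in all. Of all 6430 promoters, 2056 had a Sut1p peak in any IP, against 1501 for Gcn4p and 667 for Rtg3p. The wild-type IPs of Sut1p differed among themselves. Replicates 1 and 2 shared 38.9% of the promoters with a peak in either, whereas replicate 3 shared 3.97% with replicate 1 and 8.24% with replicate 2. The difference in the number of promoters and the score comparisons at the 10 promoters are therefore given with and without replicate 3. In the nrg1Δ IPs 1, 3 and 1 of the 10 promoters had a peak, against 2, 5 and 0 in the wild-type IPs (mean 1.67 ± 1.15 and 2.33 ± 2.52, SD, n = 3 each), so the difference of -0.667 promoters lies within the spread. It was -1.83 without wild-type replicate 3 and turned to 0.667 without wild-type replicate 2. A Sut1p peak overlapped 12.2, 16.3 and 18.2% of all promoters in nrg1Δ, from lists of 696, 808 and 1065 peaks, against 2.89, 6.83 and 11.4% in wild type, from lists of 117, 267 and 579. In wild-type replicates 1 and 2 the counts of 2 and 5 stand beside 0.289 and 0.683 at the share of all promoters, and in the other Sut1p lists counts of 0 to 3 stand beside 1.14 to 1.82.

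The highest score of any factor at these promoters was that of Sut1p at ACO1, which encodes aconitase, in wild-type replicate 2. The promoter lies on chromosome 12 from 737549 to 738148. Its scores were 0, 241 and 0 in the nrg1Δ IPs, against 353, 1674 and 0 in the wild-type IPs. The peaks, from 737420 to 738480 in nrg1Δ and from 737040 to 738506 and 737293 to 738500 in wild type, covered the whole promoter and no other. Within its list 76.5% of peaks scored lower in nrg1Δ, against 47.9 and 80.1% in wild type. The centers lay 402 bp upstream of the start in nrg1Δ and 225 and 348 bp upstream in wild type. The strains overlap through the wild-type IP without a peak (means 80.3 ± 139 in nrg1Δ and 676 ± 883 in wild type, SD, n = 3 each, exact permutation P = 0.4, adjusted P = 0.961 over 2056 promoters). Without wild-type replicate 3 both wild-type scores lie above all nrg1Δ scores, with a difference of -933 in place of -595 and P = 0.1 by exact permutation, below which 3 against 2 IPs cannot go. With that IP left out, scores lower in nrg1Δ without overlap were found at 134 of all 6430 promoters, against 5 with it. Without wild-type replicate 2 the score difference at ACO1 was only -96.05 (exact permutation P = 0.7).

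MDH2, which encodes the cytosolic malate dehydrogenase, had peaks in the same IPs. Its promoter lies on chromosome 15 from 82921 to 83520. Its scores were 0, 151 and 0 in nrg1Δ, against 132, 798 and 0 in wild type, and the strains overlap (exact permutation P = 0.7, n = 3 per strain). Without wild-type replicate 3 they still overlap, with a difference of -414 in place of -259 (exact permutation P = 0.2), and without wild-type replicate 2 the difference was -15.4 (exact permutation P = 1). The MDH2 peaks also covered the whole promoter of TRM13, a tRNA methyltransferase gene transcribed in the opposite direction, and their centers lay about midway, 402 to 478 bp from the MDH2 start and 436 to 512 bp from the TRM13 start.

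A further 3 promoters had a Sut1p peak in wild-type replicate 2 only. At MLS1, which encodes malate synthase of the glyoxylate cycle and stands in the study's own list of Sut1p-only targets drawn from these samples, the scores were 0 in all nrg1Δ IPs, against 0, 221 and 0 in wild type, and the peak also covered the promoter of DCP2, an mRNA decapping gene. In the deposited lists MLS1 thus falls short of a peak in at least 2 IPs. At IDH2 the wild-type score of replicate 2 was 129, and 30% of the peaks in that list scored lower. At IDH1 it was 53.4, near the minimum of the lists. All 3 had P = 1 (exact permutation, n = 3 per strain). Without wild-type replicate 3 each had exact permutation P = 0.4. No Sut1p peak overlapped the promoters of CIT1 (mitochondrial citrate synthase), CIT2, DLD3 or PYC1 (pyruvate carboxylase). With a peak required in at least 2 IPs, Sut1p occupied 1 of the 10 promoters in nrg1Δ, namely IDP1, against 13.8% of all promoters, and 2 in wild type, namely ACO1 and MDH2, against 3.56%.

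IDP1 was the only one of the 10 promoters whose Sut1p scores did not overlap between strains. They were 272, 147 and 85.1 in the nrg1Δ IPs and 0 in all 3 wild-type IPs (mean 168 ± 95.4 in nrg1Δ, SD, n = 3, exact permutation P = 0.1, below which 3 against 3 IPs cannot go, and adjusted P = 0.608). Scores higher in nrg1Δ without overlap were found at 5.18% of all promoters and lower ones at 0.0778%, so 1 promoter of 10 is not a result about this group. The nrg1Δ peaks nearly coincided, starting between 333585 and 333603 and ending between 334585 and 334604 on chromosome 4. Their centers lay 740 to 750 bp upstream of the IDP1 start but 275 to 286 bp upstream of that of CBS1, whose promoter they covered whole. They overlapped 351 to 370 bp of the IDP1 promoter. In wild-type replicate 3, the wild-type list with the most peaks, the nearest Sut1p peak began at 336072, inside the 3′ end of IDP1 and 1238 bp from the promoter, and had a score of 203. When each Sut1p list was limited to its 117 highest-scoring peaks, none of the nrg1Δ IPs had a peak at IDP1. Without wild-type replicate 3 the difference was 168 as before, with exact permutation P = 0.2. The strains overlapped when peaks had to score at least 100 (difference 140, exact permutation P = 0.4). They also overlapped with the gene added to its promoter (difference 101, exact permutation P = 0.3).

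**Figure D4:**
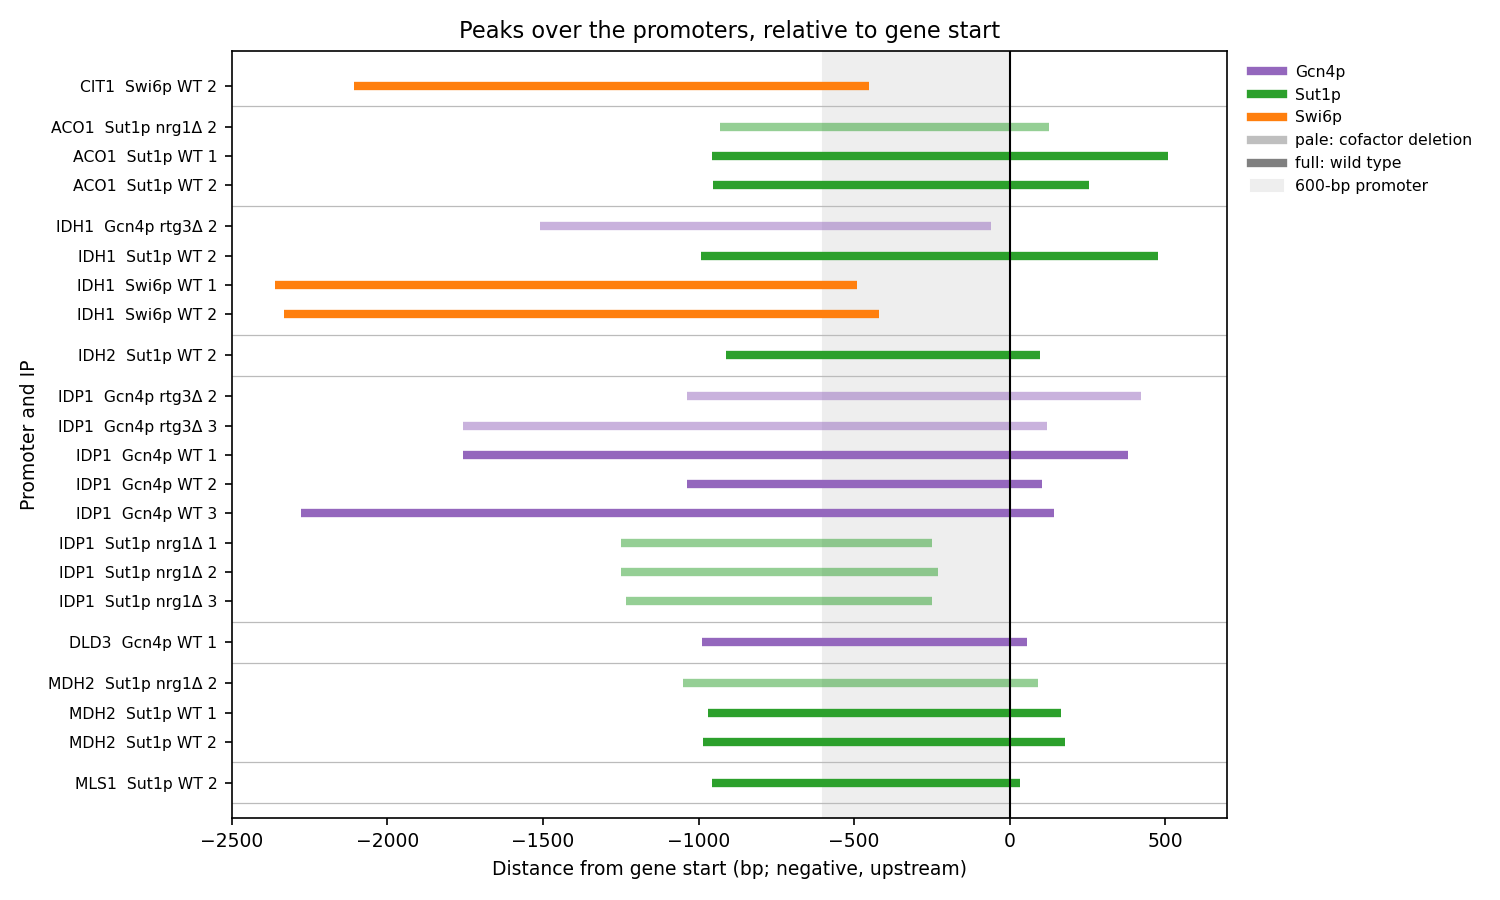
Extent of each peak over the promoters that had any, in base pairs from the gene start (negative is upstream), colored by factor, with cofactor deletions pale and above the wild type, and the 600-bp promoter shaded. The Sut1p peaks at ACO1, MDH2, MLS1 and IDH2 span the shaded promoter, whereas the Swi6p peaks at IDH1 and CIT1 reach it by 109 to 181 bp only.

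Swi6p, the shared subunit of the G1/S regulators SBF and MBF, had peaks at IDH1 and CIT1. At IDH1 the scores were 0 in both swi4Δ IPs, against 95.35 and 64.9 in the wild-type IPs, so the strains do not overlap (exact permutation P = 0.333, below which 2 against 2 IPs cannot go, adjusted P = 0.598 over 653 promoters). At CIT1 they were 0 in both swi4Δ IPs, against 0 and 90.7 in wild type (exact permutation P = 1, n = 2 per strain). The swi4Δ lists hold only 3 and 8 peaks, against 228 and 204 in wild type, and every promoter with a peak in both wild-type IPs, 5.66% of all, had lower scores in swi4Δ without overlap. These peaks lie mostly outside the promoters in question. They overlapped 109 and 181 bp of the IDH1 promoter and 149 bp of the CIT1 promoter, with centers 1427 and 1377 bp upstream of the IDH1 start and 1280 bp upstream of that of CIT1. They covered most of the promoter of a tRNA gene beside IDH1 (YNCN0010C), and all of the promoters of the tRNA genes SUF10 and YNCN0017W beside CIT1.

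Neither Nrg1p, a repressor of glucose-repressed genes, nor Swi4p, the DNA-binding subunit of SBF, had a peak at any of the 10 promoters. For Nrg1p this held in 3 sut1Δ and 3 wild-type IPs, whose lists hold 19 to 49 peaks in sut1Δ and 9 to 47 in wild type. Of all promoters, 0.7% had an Nrg1p peak in at least 2 sut1Δ IPs and 0.187% in at least 2 wild-type IPs, and 0.28% had higher scores in sut1Δ without overlap. For Swi4p it held in the single swi6Δ IP, with a peak at 6.1% of all promoters, and the single wild-type IP, with 2.26%. Scores were higher in swi6Δ at 5.27% of all promoters and lower at 0.747%. Swi4p has no replicates, and with 1 IP per strain no test was made.

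By number of lists, the promoters order as IDP1 with a peak in 8 of 30 lists, IDH1 in 4, ACO1 and MDH2 in 3, CIT1, IDH2, DLD3 and MLS1 in 1, and CIT2 and PYC1 in none. IDH1 is the only one with peaks of 3 factors, and IDP1 has peaks of 2. Of all promoters, 49.8% had a peak in no list, 25.3% in at least 3 lists and 3.95% in at least 8, and the median was 1 list. The 10 promoters thus span the range from no peak to more lists than most promoters have. The nearest peak in any of the 30 lists lay 2999 bp from the CIT2 promoter, in Sut1p nrg1Δ replicate 3, where the median gap of all promoters was 3008 bp. For PYC1 it lay 2126 bp away, in Gcn4p rtg3Δ replicate 1, where that median was 7375 bp.

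The rest of the pathway was read from 39 further genes listed by function. Of these, 1 had an Rtg3p peak in at least 2 gcn4Δ IPs and 1 in at least 2 wild-type IPs, beside 0.653 and 2.32% of all promoters. In both cases it was GRR1, an F-box protein gene whose product acts on Mks1p. Its Rtg3p scores were 230, 0 and 199 in gcn4Δ, against 75.9, 0 and 64.7 in wild type, and the strains overlap (exact permutation P = 0.4, adjusted P = 1 over 667 promoters, n = 3 per strain). Gcn4p peaks lay at the same place in 2 of 3 rtg3Δ IPs and all 3 wild-type IPs, with scores of 463, 0 and 194 in rtg3Δ against 55.6, 520 and 235 in wild type. Sut1p peaks overlapped the promoter too, in all 3 nrg1Δ IPs and 1 wild-type IP. GRR1 is in the study's list of GCN4 × RTG3 combinatorial targets, which was drawn from these samples.

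Rtg3p peaks at other pathway genes were single. ICL1, which encodes isocitrate lyase of the glyoxylate cycle and stands in the study's list of Rtg3p-only targets, had an Rtg3p score of 0 in all gcn4Δ IPs, against 76.1, 0 and 0 in wild type. In the deposited lists it thus falls short of an Rtg3p peak in at least 2 IPs. IDP3, the gene of the peroxisomal isocitrate dehydrogenase, had 0, 0 and 203 in gcn4Δ, against 92.7, 0 and 0 in wild type. None of the 17 further genes of the TCA cycle and pyruvate dehydrogenase, and none of the 4 genes of the HAP complex, had an Rtg3p peak in any IP. Among the 8 genes of retrograde signaling, GRR1 was the only one with an Rtg3p peak. Of all promoters, 4.51% had an Rtg3p peak in at least 1 gcn4Δ IP and 8.02% in at least 1 wild-type IP, so few peaks are the background here.

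Gcn4p occupied 4 of the 39 genes in rtg3Δ and 6 in wild type, counting promoters with a peak in at least 2 IPs, beside 6.89 and 8.72% of all promoters. The highest scores were at PDX1, which encodes the E3-binding protein of the pyruvate dehydrogenase complex, with 510, 1007 and 1674 in rtg3Δ, against 974, 1067 and 340 in wild type. A peak was called in all 6 IPs, and the strains overlap (exact permutation P = 0.5, n = 3 per strain). BMH2, a 14-3-3 gene of the retrograde pathway, had 0, 445 and 372 in rtg3Δ, against 389, 220 and 63.5 in wild type. PYC2, the paralog of PYC1, had 0, 865 and 132 in rtg3Δ, against 269, 67.6 and 0 in wild type, while PYC1 itself had no peak in any list. RTG1, whose product partners Rtg3p, had 0 in all rtg3Δ IPs, against 80.6, 0 and 83.7 in wild type, from peaks shared with the promoter of HST1. ICL1 had 0 in all rtg3Δ IPs, against 76.6, 59.1 and 0 in wild type. None of the 39 had Gcn4p scores that did not overlap between strains, and for RTG1 and ICL1 the exact permutation test gave P = 0.4.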

How the data were processed

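The authors called bases with CASAVA 1.8, aligned reads of 42 bases to build R64 with Novoalign 2.07.0, keeping unique alignments, and called peaks in each IP against INPUT with MACS 1.4.0rc2, per the labels and the study's methods. Each of the 30 deposited lists, 8486 peaks in all, gives the MACS score of each peak, and replicates were not pooled. There are no read counts, so depth is unknown and enrichment ratios, intervals and detection limits cannot be given. The 20 INPUT samples enter only through the peak calls. Gcn4p and Rtg3p have an INPUT for each IP, whereas the other factors have a single INPUT per strain. The peak calls of the Sut1p, Nrg1p and Swi6p IPs of a strain are thus not independent of each other, and the strains differ by INPUT as well.

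Starts below the first base (21) were set to the first base. The strand was read from systematic names, which left out 1 of 6431 nuclear genes. The highest score among overlapping peaks was used, and a promoter counted as occupied with a peak in at least 2 IPs, as for target genes in the study's methods. Strains were compared per promoter by permuting the IPs exactly (two-sided), with Benjamini-Hochberg adjustment over all promoters with a peak in any IP of the factor. No adjusted P passed 0.05, and none could. At an unadjusted P under 0.05 the count was also 0, since P cannot go below 0.1. No test was run on the 10 promoters as a group. Functions were tested on simulated data. All 10 promoters are named, as are genes under the same peaks and pathway genes with an Rtg3p or Gcn4p peak in at least 2 IPs. ICL1 and IDP3 are also given for their single Rtg3p peaks. Promoters and lists were chosen with earlier results of these data known. A planned motif search was not run, since no promoter sequence was used here. The work was done in Python 3.11.15 with pandas 2.3.3, NumPy 2.4.6 and, for plots, Matplotlib 3.10.9.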

Additional observations from a re-analysis of the deposited data

How the results depend on the processing

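The absence of Rtg3p peaks at the 10 promoters held when peaks had to score at least 100 or to overlap by 100 bp, when promoters were shortened to 300 bp, with equal numbers of peaks and with each IP left out, and also with promoters of 1000 bp, an alternative chosen after seeing the data. With the gene added to its promoter, also chosen after seeing the data, IDH2 gained the peak given above and the change in the number of promoters with an Rtg3p peak per IP was 0.333. With a peak in at least 1 IP, 2 promoters were occupied by Gcn4p in each strain, 3 by Sut1p in nrg1Δ, 5 by Sut1p in wild type and 2 by Swi6p in wild type. The shares of all promoters under that rule were 15.4% for Gcn4p in rtg3Δ and 17.6% in wild type. For Sut1p they were 25.7% in nrg1Δ and 17% in wild type, and for Swi6p in wild type 9.89%. With a peak in every IP, none was occupied by Gcn4p in rtg3Δ or by Sut1p in wild type, beside 3.28 and 0.544% of all promoters. With equal numbers of peaks, Sut1p in nrg1Δ occupied 0. The Swi6p change of -1.5 promoters per IP became 0, and Swi6p wild-type occupancy 0 in place of 1, with a score of at least 100, with promoters of 300 bp and with equal numbers of peaks. Equal numbers keep only 3 peaks of each Swi6p list, so that setting says little about Swi6p.

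Leaving out single IPs moved the Gcn4p change of -0.333 promoters per IP between -0.833 and 0.167, that of Sut1p between -1.83 and 0.667, and that of Swi6p between -2 and -1. The changes of Rtg3p and Nrg1p, which had no peak to lose, could only stay at 0. The score difference at IDP1 for Gcn4p reversed to -24.6, -33.9 and -13.95 without single IPs, and ran from -33.9 to 81.9 over the IPs left out. At IDH1 the Sut1p score difference, -17.8, reversed to 35.5 with the gene added to its promoter. Replicate numbers were not taken to pair the samples in the main test. The deviations of IPs with the same number correlated at -0.191 to 0.133 for Rtg3p, Gcn4p, Sut1p and Swi6p and at -0.131 to 0.382 for Nrg1p. Those of IPs with different numbers correlated at -0.146 to 0.215 and, for Nrg1p, at -0.424 to 0.256. Whether the Nrg1p IPs pair by number was not tested. With the replicate number as a block, the Gcn4p change stayed at -0.333 promoters per IP and the Sut1p difference at IDP1 had P = 0.25 (exact sign-flip permutation test), the smallest that 3 pairs allow. Binding below the calling threshold is not visible in a list, and lists of different length are not equally sensitive.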

Other observations

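Sut1p peaks were found at regulators of these genes that the rule for named genes does not cover, and they are given here after their values were seen. HAP4, which encodes the activating subunit of the HAP complex of respiratory genes, had Sut1p scores of 284, 3100 and 0 in the nrg1Δ IPs, against 3100, 3100 and 815 in the wild-type IPs. The value 3100 recurs as the highest score of other lists, those of Rtg3p included, so peaks with that score are not ranked against each other. The wild-type peaks are in all 3 IPs, replicate 3 included, and the strains overlap (exact permutation P = 0.4, adjusted P = 0.961, n = 3 per strain). RTG2, whose product relieves the block on Rtg3p, had 105, 167 and 102 in nrg1Δ, against 0, 0 and 59.4 in wild type. Its scores do not overlap between strains, as at 5.18% of all promoters in this direction (exact permutation P = 0.1, the smallest possible, adjusted P = 0.608). PCK1, the gene of the gluconeogenic enzyme phosphoenolpyruvate carboxykinase, had 0 in all nrg1Δ IPs, against 71.3, 124 and 0 in wild type, so that its wild-type peaks, like those of ACO1 and MDH2, were in replicates 1 and 2 and not in replicate 3. RTG3, the gene deleted in the rtg3Δ strain, had a Gcn4p peak in rtg3Δ replicate 2 only, which lay over its promoter and that of SFT2, with scores of 0, 376 and 0 in rtg3Δ and 0 in all wild-type IPs.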
